A study of Mus musculus with 12 samples.

Results

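Thymocytes move between the cortex and medulla and finally leave the thymus under the control of a small set of transcription factors and guidance receptors. The 8 genes described here are Klf2 and Foxo1, which encode transcription factors of the egress programme, S1pr1, which encodes the egress receptor, the chemokine receptor genes Ccr7, Ccr9, Ccr4 and Cxcr4, and the plexin gene Plxnd1. They were taken by symbol for their known roles, with earlier results of these data known, among 23234 features listed in the expression table.

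Foxo1 is known to promote transcription of Klf2, and Klf2 in turn that of S1pr1, whose product senses the lipid sphingosine-1-phosphate (S1P) and draws mature thymocytes into the blood. CD4+CD8+ thymocytes that have not yet undergone positive selection normally keep this programme low, reside in the cortex and display CCR9 and CXCR4, whereas CCR7 and CCR4 guide selected cells to the medulla. Plexin D1 is a semaphorin receptor that takes part in the same cortex to medulla passage.

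RNA was sequenced from thymocytes of the CD24hiTCRβlo gate, which holds CD4+CD8+ cells before positive selection, and all mice were C57BL/6. There were 5 wild-type libraries from newborn mice, 3 libraries from newborn Bcl11bm/m mice and 4 libraries from Bcl11bfl/fl:Cd4-Cre mice, for which the labels give no age. The Bcl11bm allele carries a frameshift, its product lacks the last zinc finger, it acts from the germ line in every tissue, and homozygous mice die soon after birth. In Bcl11bfl/fl:Cd4-Cre mice the Cd4 promoter drives Cre, so that the floxed gene is removed in thymocytes only once Cd4 is active. An age difference between Bcl11bfl/fl:Cd4-Cre mice and the newborn wild-type or Bcl11bm/m mice therefore cannot be told apart from the genotype. The sample descriptions and the paper name this gate, but the extraction protocol given with the samples is that of CD4-CD8- NKT cells, and this conflict is unresolved. Genotypes were read from the titles and the stated design, because the free-text descriptions conflict with them: they name Bcl11bm/m for the libraries titled WT and Bcl11b+/+ for those titled cKO. Every direction below rests on the titles. Nothing states that the libraries of a group came from separate mice, so the p-values measure the spread between these libraries, which may be technical.

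Expression is given as FPKM, which scales the fragments of a gene by transcript length and by the mapped fragments of the library. The stepwise spacing of low values put the depth at 3970000 to 6920000 fragments in wild-type, 2720000 to 4220000 in Bcl11bm/m and, in the group with Cd4-Cre, 10910000 to 45600000. Bcl11b itself had 132 to 292 FPKM in wild-type, 430 to 482 FPKM in Bcl11bm/m and 115 to 140 FPKM in Bcl11bfl/fl:Cd4-Cre libraries, over the whole gene and without separating exons or alleles. Markers of pre-selection CD4+CD8+ thymocytes were abundant in all 12 libraries, with 11 of 11 at a mean of at least 1 FPKM in each group and Rag1 at 438 to 1564 FPKM. The summed level of the 11 markers was 5271 to 7002 FPKM in wild-type, 3923 to 4507 FPKM in Bcl11bm/m and 3600 to 5751 FPKM in Bcl11bfl/fl:Cd4-Cre libraries. Bcl11bfl/fl:Cd4-Cre replicate 3 had the lowest Rag1, and Bcl11bm/m replicate 1 and Bcl11bfl/fl:Cd4-Cre replicate 3 stood apart from the rest of their groups in several of the genes below, so results are also given without them. In Bcl11bm/m 6 of the 11 markers were called lower than in wild-type, against 7.39% of all features tested, and none higher (Cd4, Cd8b1, Rag2, Ptcra, Arpp21 and Cd24a), Ptcra falling from 38.2 to 7.81 FPKM. In Bcl11bfl/fl:Cd4-Cre Cd24a alone of the 11 was called lower, from 182 to 80.2 FPKM, against 9.86% of all features tested.

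In wild-type pre-selection thymocytes the 8 genes covered a wide range of levels. Cxcr4 (mean 330.3 FPKM) and Ccr9 (281 FPKM) were highest and their libraries overlapped, and Plxnd1 (136 FPKM) came next, below every value of either. Ccr4 (12.5 FPKM) and Foxo1 (11.03 FPKM) overlapped in the middle. Ccr7 and Klf2 (both 1.82 FPKM) overlapped near the bottom, and S1pr1 was last, listed at 0 in 3 of the 5 libraries. Among the 10780 features tested, 98.1% had a lower wild-type mean than Ccr9, and 9.25% a lower mean than Klf2.

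RefSeq bases upstream of the start of transcription are shown for the called genes that its promoter table holds, since these genes moved in opposite directions. The table held 6 of the 8 genes, and S1pr1 and Ccr7 were not matched. Each stretch of 250 bases ends at the base before the start and was taken from the RefSeq table (GRCm38.p6). It was then located by an exact and single match on NCBIM37, the build of the expression files. Klf2 is at chr8:74842711-74842960 (plus strand), Foxo1 at chr3:52072009-52072258 (plus strand), Ccr9 at chr9:123676079-123676328 (plus strand) and Plxnd1 at chr6:115945024-115945273 (minus strand). Capitals mark CACCC, the core bound by KLF factors, and GGGCGG, the GC box, on either strand.
Klf2: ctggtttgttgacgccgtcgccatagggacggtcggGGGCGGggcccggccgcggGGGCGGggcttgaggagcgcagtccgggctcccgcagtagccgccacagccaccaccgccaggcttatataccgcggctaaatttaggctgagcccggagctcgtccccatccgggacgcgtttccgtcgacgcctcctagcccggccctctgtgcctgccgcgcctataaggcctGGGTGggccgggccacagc
Foxo1: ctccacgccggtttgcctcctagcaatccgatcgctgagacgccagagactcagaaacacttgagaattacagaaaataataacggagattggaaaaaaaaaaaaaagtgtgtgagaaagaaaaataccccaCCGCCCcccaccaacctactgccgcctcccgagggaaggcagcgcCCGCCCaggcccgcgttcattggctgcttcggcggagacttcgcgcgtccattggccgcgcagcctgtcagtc
Ccr9: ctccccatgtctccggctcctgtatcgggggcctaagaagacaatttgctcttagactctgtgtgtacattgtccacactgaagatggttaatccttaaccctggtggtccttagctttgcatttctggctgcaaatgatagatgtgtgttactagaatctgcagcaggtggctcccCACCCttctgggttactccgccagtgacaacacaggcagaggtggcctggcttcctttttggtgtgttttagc
Plxnd1: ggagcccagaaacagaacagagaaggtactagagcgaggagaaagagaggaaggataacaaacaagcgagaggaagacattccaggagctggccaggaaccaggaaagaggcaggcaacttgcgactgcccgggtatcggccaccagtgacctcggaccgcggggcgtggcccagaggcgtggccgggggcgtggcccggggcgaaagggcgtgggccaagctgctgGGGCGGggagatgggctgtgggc

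CACCC was found once upstream of Klf2, beginning 19 bases before the start, and once upstream of Ccr9, beginning 73 bases before it. The GENCODE span of Klf2 begins 29 bases ahead of the RefSeq start, so the last 29 bases of its stretch, the CACCC among them, lie inside the annotated gene. All 250 bases shown for Ccr9 lie inside its GENCODE span, which begins 88772 bases ahead of the RefSeq start. Cxcr4 and Ccr4 held 1 each as well, while the Foxo1 and Plxnd1 stretches held none. CACCC occurs in 52.1% of the 32536 upstream stretches of this length in the table. The GC box was present at 2 places upstream of Klf2, 2 upstream of Foxo1, 1 upstream of Plxnd1 and 3 upstream of Cxcr4, against 33.0% of all stretches with at least 1. No marked match overlapped another kind. Further motifs, GTAAACA of forkhead factors (3.17% of stretches), ACCACA or ACCGCA of Runx factors (18.5%), CCGGAA of Ets factors (12.1%) and TGACCA, which the Bcl11b relative Bcl11a binds (11.4%), were searched on both strands and are not among the letters of the 6 stretches.

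Klf2 RNA was higher in both mutants. Klf2 (ENSMUSG00000055148.7, chr8:74842932-74845555 on NCBIM37) had 1.07, 2.60, 2.33, 1.66 and 1.43 FPKM across the 5 wild-type libraries, in replicate order. In the same order, it had 31.9, 11.6 and 10.1 FPKM across the 3 Bcl11bm/m libraries and 8.55, 5.92, 34.8 and 10.8 FPKM across the 4 Bcl11bfl/fl:Cd4-Cre libraries. Every mutant library lay above every wild-type library, and Bcl11bm/m replicate 1 and Bcl11bfl/fl:Cd4-Cre replicate 3 were the highest. The mean rose 9.82-fold in Bcl11bm/m, a difference of 2.59 in log2(FPKM + 1) (SE 0.36, limma adjusted p = 0.00216). It rose 8.25-fold in Bcl11bfl/fl:Cd4-Cre, by 2.23 in log2(FPKM + 1) (SE 0.41, limma adjusted p = 0.00885). The size depended on a library in each mutant: without Bcl11bm/m replicate 1 the mean was 5.96-fold above wild-type (still called, adjusted p = 0.00198), and without Bcl11bfl/fl:Cd4-Cre replicate 3 it was 4.63-fold above (1.74, adjusted p = 0.00833). In bulk RNA, a change in the share of cells with a transcript and a change in the amount per cell cannot be told apart, here or in the results that follow.

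Foxo1, which encodes a forkhead factor upstream of Klf2, rose to a smaller extent. Foxo1 (ENSMUSG00000044167.5, chr3:52072259-52154031) had 7.49, 11.6, 12.9, 9.80 and 13.4 FPKM across the 5 wild-type libraries, in replicate order. In the same order, it had 32.3, 25.4 and 27.8 FPKM across the 3 Bcl11bm/m libraries and 20.5, 18.5, 32.8 and 18.6 FPKM across the 4 Bcl11bfl/fl:Cd4-Cre libraries. The wild-type and mutant values did not overlap, and the 3 Bcl11bm/m libraries were close together. The mean was 2.58-fold higher in Bcl11bm/m, with a log2 difference of 1.31 (SE 0.19, limma adjusted p = 0.00254). It was 2.05-fold higher in Bcl11bfl/fl:Cd4-Cre, with a log2 difference of 0.96 (SE 0.21, limma adjusted p = 0.0161). Without Bcl11bm/m replicate 1 or Bcl11bfl/fl:Cd4-Cre replicate 3 these became 1.22 (adjusted p = 0.0145) and 0.77 (adjusted p = 0.0372). A transcript annotated on the opposite strand overlaps the first part of the gene.

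S1pr1, the S1P receptor required for exit from the thymus, was close to absent in wild-type cells and present in every mutant library. S1pr1 (ENSMUSG00000045092.6, chr3:115413351-115417973) had 0.0508 and 0.0572 FPKM in wild-type replicates 1 and 2 and was listed at 0 in replicates 3 to 5. With those zeros taken as no fragments, this corresponds to an estimated 1.99 fragments over the 5 libraries. Among all features, 37 with a mean over 20 FPKM had a library listed at 0, so a listed 0 may not always be a lack of fragments. It had 3.49, 1.03 and 0.752 FPKM across the 3 Bcl11bm/m libraries and 1.14, 0.772, 3.76 and 1.02 FPKM across the 4 Bcl11bfl/fl:Cd4-Cre libraries. The groups did not overlap, and the same 2 mutant libraries that were highest in Klf2 were highest in S1pr1. S1pr1 entered the test with a mean of 1.01 FPKM over the 12 libraries, just above the minimum of 1, and did so through the mutant libraries, so that a gene with this pattern had to differ and its differences from wild-type are given as a description without a test. The difference in log2(FPKM + 1) was 1.30 in Bcl11bm/m and 1.27 in Bcl11bfl/fl:Cd4-Cre. These values depend on the pseudocount of 1, and no fold is given against so few wild-type fragments. With an estimated 8.98 to 26.8 fragments in each Bcl11bm/m library, the level in that group is also known only roughly. Without Bcl11bm/m replicate 1 or Bcl11bfl/fl:Cd4-Cre replicate 3 the differences were 0.88 and 0.95.

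**Figure D1:**
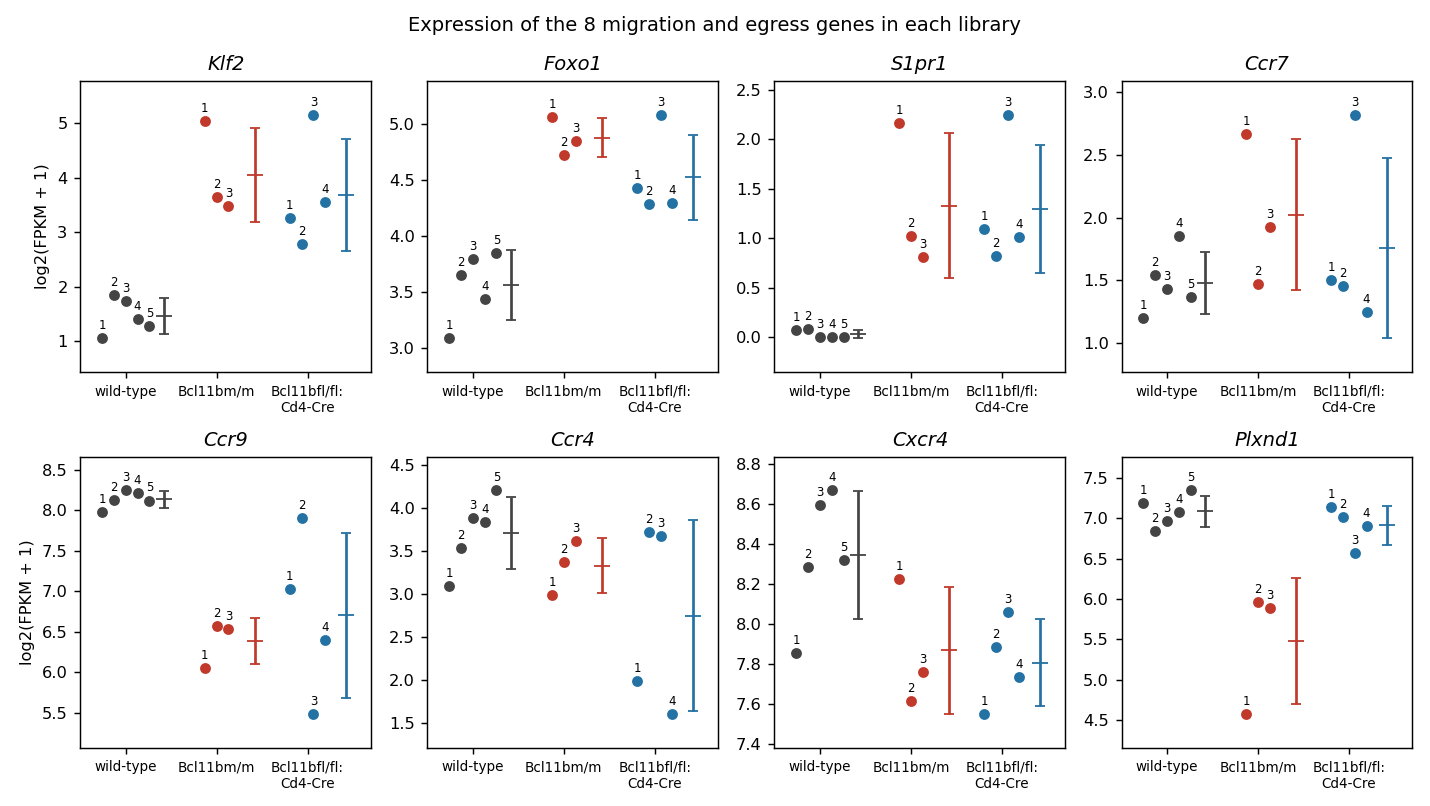
Each panel shows log2(FPKM + 1) of a gene in the 5 wild-type, 3 Bcl11bm/m and 4 Bcl11bfl/fl:Cd4-Cre libraries, numbered by replicate, with the group mean and SD beside the points, and axes that start at different values. Klf2, Foxo1 and S1pr1 lay above wild-type in all 7 mutant libraries, Ccr9 lay below wild-type in all 7, and Plxnd1 was separated from wild-type in Bcl11bm/m but overlapped it in Bcl11bfl/fl:Cd4-Cre.

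Ccr7, the receptor for the medullary chemokines CCL19 and CCL21 and a known Foxo1 target, was not called in any comparison. Ccr7 (ENSMUSG00000037944.8, chr11:99005510-99016391) had 1.30, 1.92, 1.70, 2.62 and 1.58 FPKM across the 5 wild-type libraries in replicate order, 5.36, 1.78 and 2.80 FPKM across the 3 Bcl11bm/m libraries and 1.83, 1.74, 6.06 and 1.37 FPKM across the 4 Bcl11bfl/fl:Cd4-Cre libraries. A high value was seen in Bcl11bm/m replicate 1 and in Bcl11bfl/fl:Cd4-Cre replicate 3, and the other 5 mutant libraries lay within or near the wild-type range. The log2 difference was 0.54 (95% interval -0.06 to 1.15, adjusted p = 0.210) in Bcl11bm/m and 0.28 (-0.39 to 0.95, adjusted p = 0.576) in Bcl11bfl/fl:Cd4-Cre, from limma. The former was 0.22 once Bcl11bm/m replicate 1 was left out, and the latter turned to -0.079 once Bcl11bfl/fl:Cd4-Cre replicate 3 was.

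Ccr9, the receptor for the thymic epithelial chemokine CCL25, was lower in both mutants. Ccr9 (ENSMUSG00000029530.8, chr9:123587557-123691089) had 251, 278, 303, 297 and 278 FPKM across the 5 wild-type libraries, in replicate order. In the same order, it had 65.4, 93.9 and 91.8 FPKM across the 3 Bcl11bm/m libraries and 129, 238, 43.8 and 83.8 FPKM across the 4 Bcl11bfl/fl:Cd4-Cre libraries. All 7 mutant libraries lay below the wild-type range, but Bcl11bfl/fl:Cd4-Cre replicate 2 reached 238 FPKM, near the lowest wild-type value of 251. Mean Ccr9 was 3.36-fold lower in Bcl11bm/m, with a log2 difference of -1.75 (SE 0.15, limma adjusted p = 1.61e-04). It was 2.27-fold lower in Bcl11bfl/fl:Cd4-Cre, with a log2 difference of -1.43 (SE 0.39, limma adjusted p = 0.0358). The second call was lost, at the same direction, when any of wild-type replicates 2 to 5 or Bcl11bfl/fl:Cd4-Cre replicates 1, 3 or 4 was left out (adjusted p = 0.0629 to 0.0992), whereas the first was kept without any of its 8 libraries. The annotated span of Ccr9 overlaps other genes on either strand, Lztfl1 and Slc6a20a among them, and how the table assigned fragments there is not given in the sources used here.

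Ccr4, the receptor for CCL17 and CCL22, differed between libraries more than between groups. Ccr4 (ENSMUSG00000047898.5, chr9:114399434-114405662) had 7.52, 10.6, 13.8, 13.3 and 17.5 FPKM across the 5 wild-type libraries in replicate order, 6.96, 9.39 and 11.3 FPKM across the 3 Bcl11bm/m libraries and 2.95, 12.2, 11.8 and 2.04 FPKM across the 4 Bcl11bfl/fl:Cd4-Cre libraries. Bcl11bfl/fl:Cd4-Cre replicates 1 and 4 were below all other libraries, while replicates 2 and 3 fell inside the wild-type range. The log2 difference from wild-type was -0.38 (95% interval -0.98 to 0.21, adjusted p = 0.374) in Bcl11bm/m and -0.97 (-1.97 to 0.04, adjusted p = 0.181) in Bcl11bfl/fl:Cd4-Cre, and limma called neither. Cd69, an early marker of T cell receptor signalling, had its lowest values in the same 2 libraries, 4.61 FPKM in replicate 1 and 3.48 FPKM in replicate 4, against 12.2 to 35.1 FPKM in the other 10. The γδ T cell genes Sox13 (13.9 and 3.29 FPKM), Maf (12.4 and 3.82 FPKM) and Blk (9.91 and 3.40 FPKM) had their highest values in those libraries, and the summed γδ list lay at 1.55 to 36.2 FPKM over the 4 Bcl11bfl/fl:Cd4-Cre libraries against 0.344 to 1.18 FPKM in wild-type and 2.35 to 2.45 FPKM in Bcl11bm/m. Of the 5 genes of that list, Il17a was at 0 in all 12 libraries and Il23r in 11 of them. The part of these cells in the Ccr4 values was not tested.

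Cxcr4, the receptor for CXCL12 that holds immature thymocytes in the cortex, was lower on average in both mutants without passing the threshold. Cxcr4 (ENSMUSG00000045382.6, chr1:130484776-130488870) had 231, 311, 385, 406 and 319 FPKM across the 5 wild-type libraries in replicate order, 299, 195 and 216 FPKM across the 3 Bcl11bm/m libraries and 187, 235, 266 and 213 FPKM across the 4 Bcl11bfl/fl:Cd4-Cre libraries. Both mutants overlapped wild-type through wild-type replicate 1, the lowest of its group. The log2 difference was -0.48 (95% interval -0.98 to 0.03, limma adjusted p = 0.193) in Bcl11bm/m and -0.54 (-0.95 to -0.12, limma adjusted p = 0.0826) in Bcl11bfl/fl:Cd4-Cre. Scaling changed the call: with median-ratio scaling between libraries the adjusted p was 0.0482 and 0.0448, and with quantile normalization 0.0462 and 0.0278. Without wild-type replicate 1 the adjusted p was 0.0543 for Bcl11bm/m and 0.0150 for Bcl11bfl/fl:Cd4-Cre.

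Plxnd1, which encodes a receptor for semaphorins, fell in Bcl11bm/m cells. Plxnd1 (ENSMUSG00000030123.8, chr6:115904829-115945023) had 145, 114, 125, 135 and 162 FPKM across the 5 wild-type libraries, in replicate order. In the same order, it had 22.8, 61.2 and 58.3 FPKM across the 3 Bcl11bm/m libraries and 141, 129, 94.3 and 119 FPKM across the 4 Bcl11bfl/fl:Cd4-Cre libraries. The 3 Bcl11bm/m libraries were below all others, whereas the Bcl11bfl/fl:Cd4-Cre libraries overlapped wild-type except for replicate 3. The mean was 2.87-fold lower in Bcl11bm/m than in wild-type, with a log2 difference of -1.61 (SE 0.31, limma adjusted p = 0.00879), or -1.16 without Bcl11bm/m replicate 1 (adjusted p = 0.00385). For Bcl11bfl/fl:Cd4-Cre the difference was -0.17 (95% interval -0.51 to 0.16, limma adjusted p = 0.471). Endothelial cells are another known source of Plxnd1, and their genes Tie1 and Emcn were at 0 in all libraries and Cdh5, Tek, Kdr and Esam at no more than 0.221 FPKM, while Pecam1, which T lineage cells also express, had 37.0 to 162 FPKM and was higher in both mutants.

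S1pr1, which the expression minimum selected, is left out of the counts against wild-type, which describe genes chosen with earlier results of these data known and are not an independent comparison with the background. Among the other 7 genes, limma called 4 in Bcl11bm/m against wild-type, where 17.3% of all features tested were called. Of these, 2 were higher (Klf2 and Foxo1; background 9.92%) and 2 lower (Ccr9 and Plxnd1; background 7.39%). In Bcl11bfl/fl:Cd4-Cre against wild-type 3 of the 7 were called, against 14.5% of all features, with the same 2 higher (background 4.65%) and Ccr9 lower (background 9.86%). The median log2 difference over all features was -0.02 and -0.09 in these comparisons. Without Bcl11bm/m replicate 1 the same 4 genes stayed called, and without Bcl11bfl/fl:Cd4-Cre replicate 3 the call of Ccr9 was lost and Klf2 and Foxo1 remained. Both comparisons use the same 5 wild-type libraries, so they are not independent of each other. Median-ratio scaling moved the share of higher genes among those called in Bcl11bfl/fl:Cd4-Cre from 32.0% to 47.3% (41.4% with quantile normalization), and left the directions of the 8 genes against wild-type as they were.

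The direct comparison of the mutants uses no wild-type library. S1pr1 averaged above 1 FPKM in both mutants and is counted here. Of the 8 genes, 1 was called against 10.2% of all features, with none higher in Bcl11bm/m (background 7.63%) and Plxnd1 lower (background 2.6%). Plxnd1 was 1.44 lower on the log2 scale in Bcl11bm/m (SE 0.34, limma adjusted p = 0.0413), and each Bcl11bm/m library was below each Bcl11bfl/fl:Cd4-Cre library. This call lay close to the threshold and was lost when Bcl11bm/m replicate 2 or 3 or Bcl11bfl/fl:Cd4-Cre replicate 1, 2 or 4 was left out (adjusted p = 0.0654 to 0.111), but was kept without both libraries that stood apart (log2 difference -1.10, adjusted p = 0.00893). For the other genes the 95% intervals of the difference, Bcl11bm/m minus Bcl11bfl/fl:Cd4-Cre, were wide. They ran from -1.07 to 1.79 for Klf2, -0.13 to 0.84 for Foxo1, -0.99 to 1.07 for S1pr1 and -1.52 to 0.88 for Ccr9. Without Bcl11bfl/fl:Cd4-Cre replicate 3 the Foxo1 difference of 0.36 became 0.54 and was called (adjusted p = 0.0382).

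**Figure D2:**
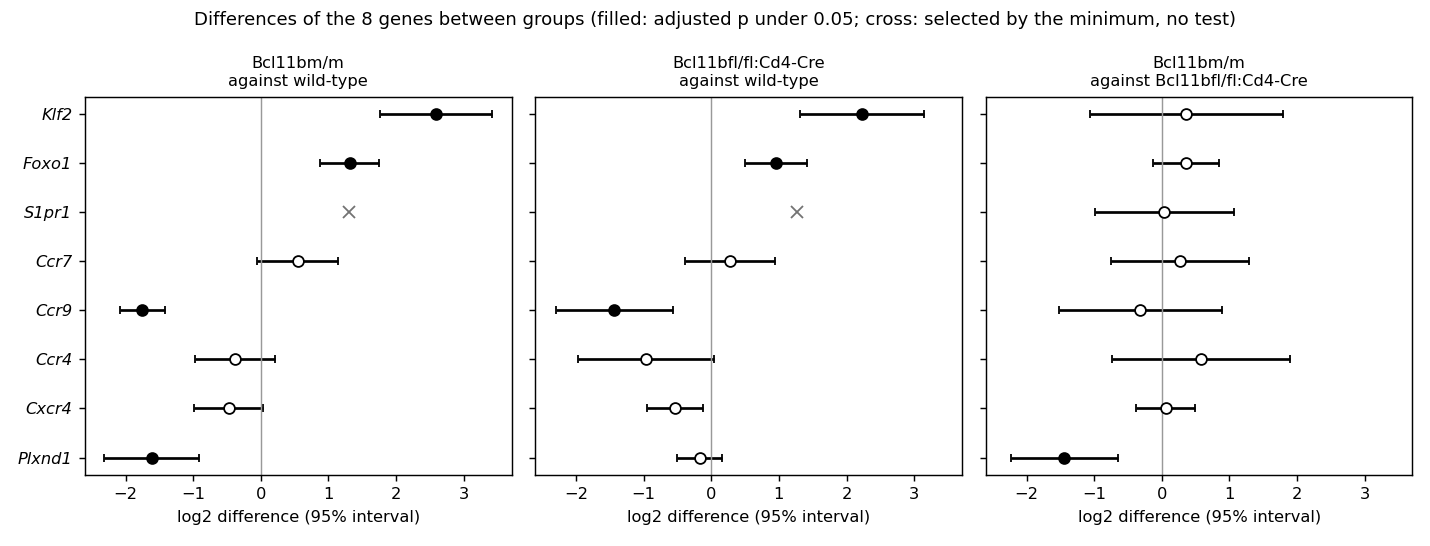
Points give the difference in log2(FPKM + 1) of the first group minus the second with its 95% interval from limma, for each of the 8 genes and 3 comparisons, and filled points have an adjusted p under 0.05. Klf2 and Foxo1 are above 0 and Ccr9 below it in both mutants against wild-type, S1pr1 against wild-type is a cross without an interval because the minimum selected it, and Plxnd1 is the gene called between the mutants.

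Several of the 8 genes varied together from library to library. Across the 12 libraries S1pr1 correlated with Klf2 (Pearson r = 0.97), as did Foxo1 with Klf2 (r = 0.94), and Ccr9 ran in the opposite direction to Klf2 (r = -0.95). These coefficients describe libraries that fall into groups and share the wild-type controls, and no test was made of them. The order was also visible among the 4 Bcl11bfl/fl:Cd4-Cre libraries, where replicate 3 had the highest Klf2 and S1pr1 and the lowest Ccr9, and replicate 2 had the lowest Klf2 and S1pr1 and the highest Ccr9. It was not seen among the 5 wild-type libraries, where replicate 1 had the lowest Klf2 (1.07 FPKM) and also the lowest Ccr9 (251 FPKM), and replicate 3 had the second highest Klf2 (2.33 FPKM) and the highest Ccr9 (303 FPKM). Ccr4 had little relation to Plxnd1 (r = 0.05), and Cxcr4 likewise (r = 0.10).

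**Figure D3:**
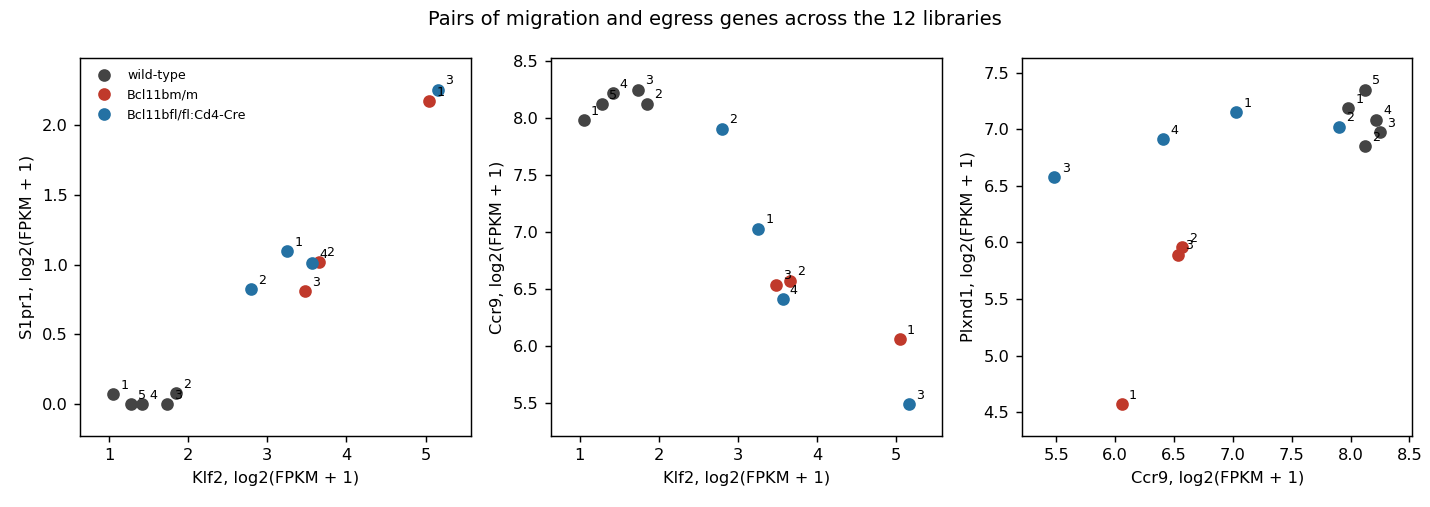
Points are the 12 libraries, numbered by replicate and coloured by group, with log2(FPKM + 1) of Klf2 against S1pr1, Klf2 against Ccr9, and Ccr9 against Plxnd1. Bcl11bm/m replicate 1 and Bcl11bfl/fl:Cd4-Cre replicate 3 lie together at high Klf2 and S1pr1, and in the Ccr9 and Plxnd1 panel the Bcl11bm/m libraries are apart from Bcl11bfl/fl:Cd4-Cre libraries with similar Ccr9.

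Among all tested features, those whose pattern over the 12 libraries was most like that of a gene were named as a description. For Klf2 these were Rassf2 (r = 0.98), Clic5 (r = 0.97) and Irf1 (r = 0.97), and for Foxo1 they were Nfkb1 (r = 0.98), Tecpr1 (r = 0.98) and Rassf2 (r = 0.97). S1pr1 was most like Klf2 itself, then Clic5 (r = 0.95) and Elovl5 (r = 0.94). Ccr7 was most like Samhd1 (r = 0.95), Capn1 (r = 0.91) and Ly6e (r = 0.90). Ccr9 was most like Rragd (r = 0.95), Phf10 (r = 0.95) and Ccdc21 (r = 0.94). Ccr4 resembled Egr1 (r = 0.94), which encodes an early response factor of T cell receptor signalling, followed by Cd69 and Cd27 (both r = 0.90). Cxcr4 was most like Gm10094 (r = 0.98), Cdc5l (r = 0.98) and Sec11a (r = 0.97), and Plxnd1 most like Ldhb (r = 0.96), Cdon (r = 0.94) and Cldn4 (r = 0.93).

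Other genes of the same pathways were examined in 6 lists of 115 genes, of which 69 were tested. Limma called 14 of them in Bcl11bm/m (12 higher and 2 lower) and 9 in Bcl11bfl/fl:Cd4-Cre (8 higher and 1 lower). These are 20.3% and 13% of the tested list genes, close to the 17.3% and 14.5% of all features. Of the higher genes, 4 in Bcl11bm/m (Cxcr5, Il7r, Sema4c and Ppap2b) and the first 3 of them in Bcl11bfl/fl:Cd4-Cre averaged under 1 FPKM in wild-type. They reached the minimum of 1 through mutant libraries, so a difference was built into their selection, and their values are given below as a description without a test. With these genes set aside, 6 of the other 10 calls in Bcl11bm/m and 2 of the other 6 in Bcl11bfl/fl:Cd4-Cre were kept whichever library was left out, and calls that were lost are marked where they are given. In the KLF and FOXO network, 2 of 19 tested genes were higher in Bcl11bm/m, 3 were higher in Bcl11bfl/fl:Cd4-Cre and none was lower in either (background 9.92% and 4.65% higher). With Il7r set aside, 1 and 2 were higher. The list had a median log2 difference of 0.11 in Bcl11bm/m and 0.17 in Bcl11bfl/fl:Cd4-Cre. Il7r, the IL-7 receptor gene and a Foxo1 target, had no more than 0.0885 FPKM in wild-type, 12.2 to 25.8 FPKM in Bcl11bm/m and 1.45 to 8.96 FPKM in Bcl11bfl/fl:Cd4-Cre libraries. Itgb7, which encodes an integrin chain for gut homing, had 4.32 to 28.4 FPKM in wild-type, 121 to 141 FPKM in Bcl11bm/m and 51.1 to 160.2 FPKM in Bcl11bfl/fl:Cd4-Cre libraries (adjusted p = 0.00561 and 0.00925). Sesn1, a Foxo target, was called in Bcl11bfl/fl:Cd4-Cre (log2 difference 0.53, adjusted p = 0.0356), but not in 7 of 9 fits with a library left out (adjusted p up to 0.102).

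In the S1P list 9 of 16 genes were tested, of which 3 were higher in Bcl11bm/m and 1 was higher and 1 lower in Bcl11bfl/fl:Cd4-Cre, at the backgrounds given above, and with Ppap2b set aside 2 were higher in Bcl11bm/m (median log2 difference 0.14 and 0.13). Ppap2b, which encodes a lipid phosphatase that degrades S1P, had 3.35 to 3.60 FPKM in Bcl11bm/m but at most 0.42 FPKM in the other 9 libraries, so it reached the minimum through Bcl11bm/m alone. Sgpl1, the S1P lyase gene (log2 difference 0.71, adjusted p = 0.0313), and Adrbk1, which encodes GRK2, a kinase that desensitizes S1P receptors (0.46, adjusted p = 0.0485), were called higher in Bcl11bm/m, and lost the call in 5 and 7 of 8 fits with a library left out (adjusted p up to 0.117 and 0.135). S1pr4, another S1P receptor gene, rose in Bcl11bfl/fl:Cd4-Cre (log2 difference 1.02, adjusted p = 0.0116). Cd69, whose product removes S1P receptor 1 from the cell surface, was called lower there (-1.46, adjusted p = 0.0356), though not in 6 of 9 fits with a library left out (adjusted p up to 0.113). S1pr2 was measured at 1.76 to 4.11 FPKM over all libraries and was not called in either mutant.

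Only 4 of 19 further chemokine receptor genes reached the expression minimum, and 1 of these was called, in both mutants (background 17.3% and 14.5%). Cxcr5, the receptor for the follicular chemokine CXCL13, had 0.101 to 0.804 FPKM in wild-type, 206 to 273 FPKM in Bcl11bm/m and 14.6 to 122 FPKM in Bcl11bfl/fl:Cd4-Cre libraries, and is the gene called, so that with genes selected by the minimum set aside no chemokine receptor of the list was called. Cxcr6 had means of 0.426 FPKM in wild-type, 0.879 FPKM in Bcl11bm/m and 1.81 FPKM in Bcl11bfl/fl:Cd4-Cre, and was not called. Of the 6 thymic ligand genes, Ccl25 passed the minimum (0.831 to 4.43 FPKM) and was not called, and Cxcl12 had at most 0.289 FPKM.

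Of 28 tested genes that act downstream of chemokine receptors, 4 were higher and 2 lower in Bcl11bm/m, and 2 were higher and none lower in Bcl11bfl/fl:Cd4-Cre (median log2 difference 0.09 and -0.03). These are 21.4% and 7.14% of the list, against 17.3% and 14.5% of all features. Gng2, a G protein γ subunit gene, rose in both (log2 difference 1.73 and 0.93, adjusted p = 0.00202 and 0.0345). Rgs3, whose product shuts off G protein signals, rose in both too (1.60 and 1.67, adjusted p = 0.00152 and 0.0450). In Bcl11bfl/fl:Cd4-Cre these calls were lost in 6 (Gng2) and 8 (Rgs3) of 9 fits with a library left out (adjusted p up to 0.0891 and 0.112). Rgs10 and Rgs14 of the same family fell in Bcl11bm/m (-1.84 and -0.94, adjusted p = 0.00917 and 0.00102) and were lower there than in Bcl11bfl/fl:Cd4-Cre (-1.57 and -0.70, adjusted p = 0.0387 and 0.0121). Between the mutants the call of Rgs10 was lost in 6 of 7 fits with a library left out (adjusted p up to 0.125) and that of Rgs14 in 2 of 7 (up to 0.0537). Arrb1, the β-arrestin gene, and Pik3cg, the gene of a lipid kinase subunit activated by G proteins, were higher in Bcl11bm/m (1.14 and 0.41, adjusted p = 0.0119 and 0.0471), with the calls lost in 1 and 7 of 8 such fits (adjusted p up to 0.0564 and 0.162).

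Of 8 tested plexin, neuropilin and semaphorin genes, 2 were higher and none lower in Bcl11bm/m (background 9.92% and 7.39%), and 1 was higher and none lower in Bcl11bfl/fl:Cd4-Cre (background 4.65% and 9.86%) (median log2 difference 0.42 and 0.04). With Sema4c set aside, 1 and 0 were higher. Sema4c, a class 4 semaphorin gene, had 0.319 to 0.745 FPKM in wild-type, 22.5 to 27.9 FPKM in Bcl11bm/m and 1.31 to 17.2 FPKM in Bcl11bfl/fl:Cd4-Cre libraries. Plxnc1, the gene of another plexin, was 0.75 higher on the log2 scale in Bcl11bm/m (adjusted p = 0.00704) at a low level, with means of 2.89 against 1.33 FPKM. Between the mutants, Sema4d was 0.37 lower in Bcl11bm/m (limma adjusted p = 0.0415) and Plxnc1 was higher (means 2.89 against 1.58 FPKM, limma adjusted p = 0.0313). Each of these calls was lost in 6 of 7 fits with a library left out (adjusted p up to 0.147 and 0.108). Sema3e, which encodes a ligand of plexin D1, was under the minimum.

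**Figure D4:**
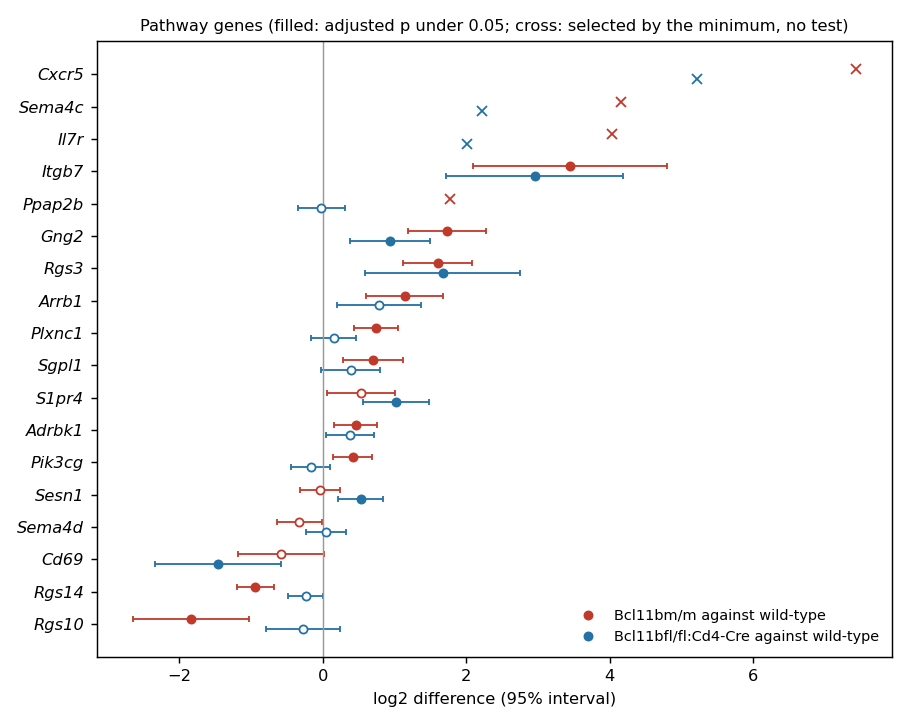
Differences in log2(FPKM + 1) from wild-type with 95% intervals from limma are shown for the 18 pathway genes called in at least 1 of the 3 comparisons, in Bcl11bm/m (red) and Bcl11bfl/fl:Cd4-Cre (blue), and filled points have an adjusted p under 0.05. Itgb7, Gng2 and Rgs3 are called above 0 in both mutants, while crosses without intervals mark Cxcr5, Sema4c, Il7r and, in Bcl11bm/m, Ppap2b, which the minimum selected and which are shown without a test.

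Markers of other cells moved in the same libraries. A list of 10 genes of thymocytes after selection, which shares Il7r and Cd69 with the pathway lists, had 8 tested genes, of which 5 were higher and 1 lower in Bcl11bm/m and 3 were higher and 1 lower in Bcl11bfl/fl:Cd4-Cre (backgrounds 9.92% higher and 7.39% lower, and 4.65% and 9.86%). With Il7r, which the minimum selected, set aside, 4 and 2 were higher. Its summed level was 105 to 244 FPKM in wild-type, 208 to 283 FPKM in Bcl11bm/m and 104 to 309 FPKM in Bcl11bfl/fl:Cd4-Cre libraries, highest in Bcl11bm/m replicate 1 and Bcl11bfl/fl:Cd4-Cre replicate 3. Its members were split. Ly6c1 and Cd44 rose in both mutants, and Il7r is described above. Ms4a4b (27.0 against 6.09 FPKM) and Ms4a6b (26.9 against 13.5 FPKM) were called higher in Bcl11bm/m but not in Bcl11bfl/fl:Cd4-Cre. Cd5 fell in Bcl11bm/m and Cd69 in Bcl11bfl/fl:Cd4-Cre. Dapl1, under the minimum, was at 0 in every wild-type and Bcl11bm/m library and had 0.491 to 1.54 FPKM in Bcl11bfl/fl:Cd4-Cre libraries. The summed level of 7 progenitor markers was 4.45 to 7.17 FPKM in wild-type, 48.2 to 149 FPKM in Bcl11bm/m and 4.57 to 21.2 FPKM in Bcl11bfl/fl:Cd4-Cre libraries. Most of it was Il2ra in Bcl11bm/m (33.5 to 117 FPKM, against 2.68 to 5.25 FPKM in wild-type). Hes1 had means of 13.4 FPKM in Bcl11bm/m and 6.69 FPKM in Bcl11bfl/fl:Cd4-Cre against 0.115 FPKM in wild-type. Kit (3.01 against 0.399 FPKM) and Flt3 (4.36 against 0.0946 FPKM) were also higher in Bcl11bm/m. The minimum selected Hes1, Kit and Flt3, so they are described without a test. With them set aside, 1 gene of the list, Il2ra, was called higher in Bcl11bm/m (background 9.92%) and none in Bcl11bfl/fl:Cd4-Cre. Vpreb1 went the other way (0.713 and 0.882 against 1.46 FPKM) without being called, and Igll1 and Gata2 were each at 0 in 11 of the 12 libraries. The summed level of 6 NK cell markers, mostly Gzma, was 18.5 to 71.1, 215 to 415 and 65.7 to 189 FPKM. Within each mutant it peaked in Bcl11bm/m replicate 1 and Bcl11bfl/fl:Cd4-Cre replicate 3. Klrb1c, which the minimum selected, had means of 4.22 and 7.34 FPKM in the mutants against 0.155 FPKM in wild-type. Klrd1, under the minimum, was at 0 in wild-type and had 0.111 to 5.49 FPKM in Bcl11bfl/fl:Cd4-Cre. Both were highest in Bcl11bfl/fl:Cd4-Cre replicate 3, but Klrb1c had 0.301 FPKM in Bcl11bm/m replicate 1. Ncr1 was at 0 in 11 of the 12 libraries. Prf1 of the NK list went both ways, from 2.45 FPKM in wild-type to 5.12 FPKM in Bcl11bm/m (limma adjusted p = 0.0264) and 0.946 FPKM in Bcl11bfl/fl:Cd4-Cre. The 8 myeloid markers summed to 5.46 to 11.8 FPKM in wild-type, 10.4 to 49.6 FPKM in Bcl11bm/m, highest in replicate 1, and 0.996 to 7.25 FPKM in Bcl11bfl/fl:Cd4-Cre. Fcgr3 and Mpeg1 of that list were higher in Bcl11bm/m, and Lyz2 and Mpeg1 lower in Bcl11bfl/fl:Cd4-Cre. The 7 B cell markers summed to 13.7 to 21.6, 8.67 to 37.3 and 11.8 to 28.3 FPKM, again highest in Bcl11bm/m replicate 1, which had 10.7 FPKM of Cd79a, and Cd79a was called higher in Bcl11bfl/fl:Cd4-Cre (adjusted p = 0.0237). The fibroblast marker Pdgfrb was higher in both mutants (4.06 and 7.46 against 0.713 FPKM), with Col3a1 and Dcn at 0 in all libraries, and the epithelial marker Epcam lower in both (0.303 and 0.786 against 3.04 FPKM). Psmb11, the other tested gene of the 7 epithelial markers, was not called (1.38 and 1.25 against 1.11 FPKM), and Krt8, under the minimum, had 0.706 and 0.0799 against 0.269 FPKM. Fcgr3, Mpeg1, Lyz2, Cd79a, Pdgfrb, Epcam and, in Bcl11bfl/fl:Cd4-Cre, Prf1 each had a group that averaged under 1 FPKM. They reached the minimum through groups with higher values, so these differences are given as a description without a test. Between the mutants, where Plxnd1 was called, 2 of these markers were called higher in Bcl11bm/m with both groups at the minimum (background 7.63%). These were Il2ra of the progenitor list and Hba-a1 of the erythroid list (10.5 against 1.17 FPKM, limma adjusted p = 0.0162). Kit, Flt3, Lyz2, Mpeg1, Prf1 and the erythroid gene Hbb-b2 (5.77 against 0.467 FPKM) were also higher in Bcl11bm/m. They averaged under 1 FPKM in Bcl11bfl/fl:Cd4-Cre and reached the minimum through groups with higher values, so they are described without a test. The erythroid list summed to 2.37 to 34.6 FPKM in wild-type, 10.6 to 29.8 FPKM in Bcl11bm/m and 0.850 to 5.03 FPKM in Bcl11bfl/fl:Cd4-Cre libraries, with no gene called against wild-type. The part of such cells in the values of Klf2, S1pr1, Ccr9 and the other genes was not tested.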

How the data were processed

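RNA-seq of 12 libraries was analysed as one table of FPKM values per gene symbol and library, which the authors deposited after mapping with TopHat2 and estimation with Cufflinks 2.1.1 on mm9 with iGenome gene models, with no stated scaling between libraries. The submitters' protocol describes CD4-CD8- NKT cells, whereas the sample descriptions and the paper give pre-selection CD4+CD8+ thymocytes, and the protocol and the paper name different library kits, so the chemistry and its use of strand are uncertain.

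The 8 genes and all lists were chosen with earlier results of these data known. Some genes of these lists are not reported here and were left out of the list counts and sums. The 10780 features that averaged 1 FPKM or more in the 12 libraries were compared on log2(FPKM + 1) with limma 3.58.1 in R 4.3.3 (lmFit, eBayes with trend; 2 groups a fit, two-sided, Benjamini-Hochberg over all features, threshold 0.05 for a call). The genes named were the 8 genes, up to 4 called genes per list and comparison by size of difference, and the 3 features most correlated with each gene. Sema3e, Cxcl12, S1pr2, Cxcr6, Ccl25 and the marker genes were named beyond that rule, after their values were seen. Positions are from GENCODE vM1 on NCBIM37.

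Depth was estimated from 5120 genes with a single transcript, in which 65.2 to 70.4% of low values lay within 0.1 of a whole multiple of a step, against 20% if spread evenly. On simulated data with 200 genes changed by 1.5 (log2), the fit recovered 89%, 86% and 81% in the comparisons of Bcl11bm/m with wild-type, Bcl11bfl/fl:Cd4-Cre with wild-type and the mutants with each other, and 4.81%, 7.03% and 11% of its calls were false, above the threshold of 5% in both comparisons with Bcl11bfl/fl:Cd4-Cre. The simulation drew every group from the wild-type means and spread and changed only genes above a set level. These shares need not hold for genes with low levels or a wider spread in the mutants. For Klf2 the SD of log2(FPKM + 1) was 0.33 in wild-type, 0.86 in Bcl11bm/m and 1.03 in Bcl11bfl/fl:Cd4-Cre. Alternatives were a pseudocount of 0.1, no filter, a minimum mean of 5 FPKM, scaling by median ratios, quantile normalization, a fit of all 3 groups, a replicate block and leaving out each library. Leaving out both libraries that stood apart was chosen after seeing the data.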

Additional observations from a re-analysis of the deposited data

Results flagged for a closer look

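In 4 of 16 sets of 4 or 5 libraries examined (8 genes in 2 groups), Bcl11bfl/fl:Cd4-Cre replicate 3 was remote from its 3 companion libraries by Dixon's criterion. Chance marks about 1 in 20 such sets if values follow a normal distribution, which was not checked for FPKM. The 4 sets also share this library and genes that vary together, so they are not independent. Its Klf2 was 34.8 FPKM, Foxo1 32.8 FPKM, S1pr1 3.76 FPKM and Ccr7 6.06 FPKM, each the highest of the 4 libraries. Bcl11bm/m replicate 1 had similar values, but groups of 3 were not examined.

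Plxnd1 differed between the mutants in its change from wild-type. The difference, Bcl11bm/m minus Bcl11bfl/fl:Cd4-Cre, was -1.44 in log2(FPKM + 1), limma adjusted p = 0.0413, with all 3 Bcl11bm/m libraries below all 4 Bcl11bfl/fl:Cd4-Cre libraries. The call was lost in 5 of 7 fits with a library left out (adjusted p up to 0.111), without the filter (0.0711), with quantile normalization (0.0551) and with the replicate block (0.179).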

How the results depend on the processing

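Called differences of the 8 genes from wild-type kept their direction under all alternatives. In Bcl11bm/m against wild-type, 1866 genes were called, 1189 at a minimum mean of 5 FPKM and 1021 to 2349 when a library was left out. Pathway genes called numbered 14 (20.3% of those tested, against 17.3% of all features), and 22 with median-ratio scaling (31.9% against 22.1%). In Bcl11bfl/fl:Cd4-Cre against wild-type, leaving out a library gave 700 to 2678 genes against 1564 and 5 to 11 pathway genes against 9. Without filter, Ccr9 lost its call there (adjusted p = 0.0737). Between the mutants, 1102 genes were called, 656 at that minimum and 313 to 1121 with a library left out, and pathway genes numbered 6, or 1 to 9 with a library left out. Members called there were 1, but 0 without filter or with quantile normalization and 0 to 2 with a library left out. The share of higher genes there moved from 74.6% to 54.6% with median-ratio scaling and 53.4% with quantile normalization.

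Replicate numbers did not pair the libraries (correlations of same-numbered deviations -0.21 to 0.15). With the replicate number as a block, 283, 456 and 30 genes were called in the 3 comparisons, 1 and 2 of the 7 genes other than S1pr1 against wild-type and 0 of the 8 between the mutants, and 5, 5 and 0 pathway genes. The block ended the calls of Klf2, Foxo1 and Plxnd1 in Bcl11bm/m and of Ccr9 in Bcl11bfl/fl:Cd4-Cre against wild-type, with adjusted p from 0.0889 to 0.154, and of Plxnd1 between the mutants (0.179).

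Small differences that were not called changed sign. Ccr7 in Bcl11bfl/fl:Cd4-Cre was -0.079 without its replicate 3 (-0.079 to 0.45 with a library left out). Between the mutants, S1pr1 was -0.029 with median-ratio scaling, -0.024 with quantile normalization, -0.059 with the replicate block, -0.38 to 0.35 with a library left out and -0.063 without Bcl11bm/m replicate 1 and Bcl11bfl/fl:Cd4-Cre replicate 3. Cxcr4 was -0.041 with median-ratio scaling, -0.035 without those 2 and -0.12 to 0.19 with a library left out. Klf2 ranged from -0.13 to 0.85, Ccr7 from -0.056 to 0.62 and Ccr9 from -0.73 to 0.081 with a library left out. The cause was not tested. S1pr1 and Ccr7 had no value at the minimum of 5 FPKM. With the estimated 2720000 to 4220000 fragments of Bcl11bm/m libraries, levels near those of S1pr1 rest on few fragments.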
